A study of Mus musculus with 12 samples.

Results

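Chemokine receptors are the sensors by which macrophages follow chemokine gradients, and the RNA-seq data described here cover 5 of their genes: Ccr1, Ccr2, Cx3cr1, Cxcr4 and Ccrl2. They were found by symbol among the 34327 genes of the deposited table, and each symbol had a row. The 12 libraries came from bone marrow–derived macrophages (BMDMs) of wild-type C57BL/6J mice, which had been differentiated for at least 6 days in medium conditioned by L929 cells, the usual source of CSF1. BMDMs were embedded in low-collagen gels (2 mg/ml), embedded in high-collagen gels (7 mg/ml), or kept on tissue culture (TC) plates, and in each setting they were left untreated or were given IL-4 (20 ng/ml) for 24 hours. Each of the 6 conditions had 2 libraries. No source used here says whether these 2 came from separate mice or cultures, so p-values measure the spread between libraries, which may be technical. All cells carried the same genotype and had the same origin. The model therefore holds cultured macrophages alone, without the tissue cells that make many chemokines.

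Most chemokine receptors are G protein–coupled receptors. A bound chemokine leads them to activate inhibitory G proteins, and the released βγ subunits turn on PI3K-γ, phospholipase C-β and the Rac machinery that moves a cell. Ccr1 binds CC chemokines such as Ccl3, Ccl5, Ccl6 and Ccl9. Ccr2 binds Ccl2, Ccl7 and Ccl12 and brings inflammatory monocytes out of the bone marrow. Cx3cr1 binds the membrane-tethered chemokine Cx3cl1 and is a marker of patrolling monocytes, microglia and many tissue macrophages. Cxcr4 binds Cxcl12, which retains leukocytes in bone marrow, and also responds to Mif. Ccrl2 is an atypical member that binds chemerin, the product of Rarres2, and presents it to Cmklr1 without G protein signaling of its own. IL-4 signals through STAT6 and turns macrophages toward a tissue repair program.

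The receptors differ at a site that bears on G protein signaling, and the coding sequence there is shown for that reason, with that of Cmklr1 beside them. The following 27 bases per gene come from the longest open reading frame of its GENCODE transcripts (GRCm38). The capitals mark the codons that align with the aspartate-arginine-tyrosine motif at the inner end of the third transmembrane helix of Ccr1, a motif through which chemokine receptors engage G proteins.
Ccr1: ttgacgattGACAGATACctggccatt
Ccr2: ctgacaattGATAGGTACttggctatt
Cx3cr1: atcagcatcGACCGGTACcttgccatc
Cxcr4: atcagcctgGACCGGTACctcgctatt
Ccrl2: ctccttgtgCAAGGATACagggtgttt
Cmklr1: atcagctttGACCGCTGCatctccgtg
In Ccr1, Ccr2, Cx3cr1 and Cxcr4 the capitals encode the motif, and in Ccrl2 they do not. They do not in Cmklr1 either, which signals, so the motif alone does not separate Ccrl2 from signaling receptors.

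Apart from Cxcr4, these genes share a chromosome. On GRCm38, Ccr1 (ENSMUSG00000025804) lies on chromosome 9 from 123962124 to 123968692 on the minus strand, and Ccr2 (ENSMUSG00000049103) on chromosome 9 from 124101950 to 124113557 on the plus strand. Between them lie Ccr1l1 and Ccr3. Cx3cr1 (ENSMUSG00000052336) lies on chromosome 9 from 119901616 to 120069879, minus strand, and Ccrl2 (ENSMUSG00000043953) on chromosome 9 from 111054486 to 111057519, minus strand. Cxcr4 (ENSMUSG00000045382) lies apart, on chromosome 1 from 128588199 to 128592293, minus strand. All 5 are annotated as protein-coding.

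Some stretches of these transcripts also occur in other genes. Of the 31-base words in Ccr2 transcripts, 3.48% also occurred in GENCODE transcripts of other genes. The share was 3.28% for Cx3cr1, 0.642% for Ccr1, 0.231% for Ccrl2 and 0.111% for Cxcr4. Kallisto divides such reads between genes, so part of a value may come from other genes. How large a part was not tested, since these are shares of words and not of reads. The study quantified against an Ensembl cDNA set and not the GENCODE transcripts searched here, so the shares may differ there.

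The values are TPM, transcript abundances per unit of transcript length on a common total in every library. They carry no read depth, so no counting interval can be given. The 12 libraries resembled each other in complexity, with 11543 to 11910 genes at 1 TPM or more and a correlation between the replicates of a condition of 0.980 to 0.985. Each library was closer to its replicate than to any library of another condition (at most 0.979). Markers fit the labeled cell type, since all 8 macrophage markers were above a mean of 1 TPM and their summed level was 17540 to 53960 TPM, most of it from Lyz2. None of the markers of eosinophils, dendritic cells, lymphocytes, mast cells or fibroblasts reached a mean of 1 TPM. Of 6 monocyte markers 3 did (Nr4a1 and Treml4 among them), and of 8 neutrophil markers 2 did (S100a8 and S100a9), with Ly6g at 0 in all libraries.

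In level, Cxcr4 and Ccr1 were the most abundant of the receptors, with means of 105.8 and 98.4 TPM over the 12 libraries, above 88.3% and 87.6% of the 11865 genes with a mean of 1 TPM or more. Cx3cr1 averaged 32.2 TPM, Ccr2 13.8 TPM and Ccrl2 10.3 TPM (above 64.3%, 39.7% and 32.4%). The order of the receptors within a library depended on the condition and was the same in both replicates of each. Cx3cr1 led on untreated TC plates and came last in every condition with IL-4. The summed TPM of the receptors was highest in untreated high-collagen gels (480 and 462 TPM) and lowest on TC plates with IL-4 (126 and 121 TPM).

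For the receptor Ccr1, TC plates gave 58.6 and 54.8 TPM untreated and 65.6 and 65.6 TPM with IL-4. Low-collagen gels gave 131 and 144.5 TPM untreated and 66.0 and 67.8 TPM with IL-4, and high-collagen gels gave 182 and 175 TPM untreated and 86.6 and 83.3 TPM with IL-4. Untreated gels were thus the high group, and the values of all 6 conditions were separate, although the IL-4-treated groups of TC plates and low-collagen gels lay close.

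Ccr2 was low on TC plates, at 2.95 and 5.04 TPM untreated and 2.45 and 2.80 TPM with IL-4. In low-collagen gels it stood at 22.1 and 23.5 TPM untreated and at 7.12 and 7.22 TPM with IL-4, and in high-collagen gels at 36.4 and 33.6 TPM untreated and at 10.7 and 11.4 TPM with IL-4. Every gel library lay above every TC plate library, and no 2 conditions overlapped.

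Cx3cr1 was split by IL-4. Untreated, it was at 73.6 and 74.1 TPM on TC plates, at 38.5 and 45.9 TPM in low-collagen gels and at 72.4 and 70.2 TPM in high-collagen gels. With IL-4 it was at 1.78 and 1.42 TPM on TC plates, at 1.57 and 0.928 TPM in low-collagen gels and at 2.92 and 3.77 TPM in high-collagen gels. The 6 untreated libraries lay far above the 6 with IL-4. Among these 6, TC plates and low-collagen gels overlapped and high-collagen gels lay above them.

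Cxcr4 followed the order of Ccr2. It was at 58.9 and 65.5 TPM untreated and 48.1 and 40.5 TPM with IL-4 on TC plates, at 169 and 153 TPM untreated and 76.2 and 71.1 TPM with IL-4 in low-collagen gels, and at 177 and 172 TPM untreated and 125 and 112 TPM with IL-4 in high-collagen gels. The highest value on TC plates was below the lowest in any gel, and the conditions did not overlap.

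Ccrl2 varied least. It was at 11.99 and 11.4 TPM untreated and 7.59 and 10.4 TPM with IL-4 on TC plates, at 14.7 and 12 TPM untreated and 5.62 and 6.24 TPM with IL-4 in low-collagen gels, and at 11.96 and 11.1 TPM untreated and 10.3 and 10.9 TPM with IL-4 in high-collagen gels. Only low-collagen gels with IL-4 lay below all other libraries. Untreated TC plates overlapped untreated high-collagen gels, and the 2 other groups with IL-4 overlapped each other.

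**Figure D1:**
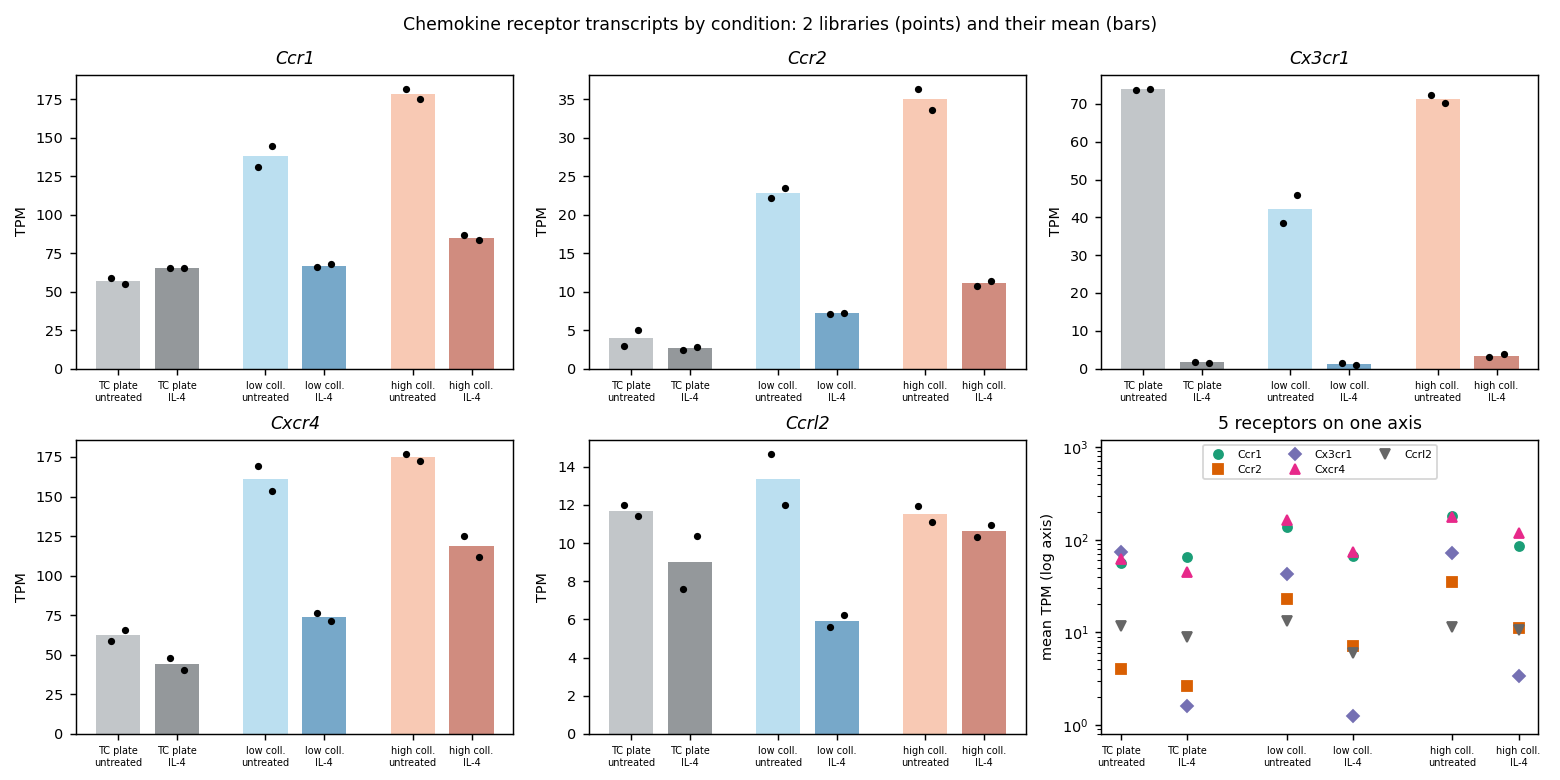
TPM of the 5 chemokine receptors in the 6 conditions. In the first 5 panels the points are the 2 libraries, the bars their mean and the y axis is linear from 0, and in the last panel the means share a log axis. Ccr1, Ccr2 and Cxcr4 were highest in untreated gels, Cx3cr1 was at most 3.77 TPM in all libraries with IL-4, and Ccrl2 stayed between 5.62 and 14.7 TPM.

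To determine how IL-4 altered the receptors, log2(TPM + 1) was compared in limma, with Benjamini-Hochberg adjustment over all genes, and calls were made at an adjusted p under 0.2, the threshold the study used for its gels. Changes are differences of log2(TPM + 1) with their SE, which understates those of low genes. In low-collagen gels all 5 receptors fell with IL-4, where 40.4% of the 11852 genes tested were called lower and 13.2% higher. Dividing the TPM of each library by its median ratio to the others, a rescaling to a common median, made this 21.4% lower and 23.4% higher, and left all 5 receptors called lower. Cx3cr1 fell by 4.27 ± 0.17 (adjusted p = 3.1e-06, limma), the second largest fall of all genes tested, and its mean went from 42.2 to 1.25 TPM. The decrease was 1.54 ± 0.10 for Ccr2 (log2 change −1.54, adjusted p = 3.04e-05) and 1.03 ± 0.07 for Ccr1 (log2 change −1.03, adjusted p = 4.26e-05). Cxcr4 changed by −1.12 ± 0.08 (adjusted p = 6.06e-05) and Ccrl2 by −1.04 ± 0.13 (adjusted p = 0.00101). The median change of the receptors was −1.12, and that of all genes −0.19.

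In high-collagen gels 4 of the 5 receptors were called lower with IL-4, against 22.8% of genes tested (14.4% after rescaling). Cx3cr1 changed by −4.06 ± 0.17 (adjusted p = 6.91e-06), Ccr2 by −1.58 ± 0.10 (adjusted p = 4.41e-05), Ccr1 by −1.06 ± 0.07 (adjusted p = 5.67e-05) and Cxcr4 by −0.56 ± 0.08 (adjusted p = 0.00323). Ccrl2 was not called. Its change was −0.11, with a 95% interval from −0.42 to 0.20 (adjusted p = 0.632). The median change was −1.06 for the receptors and −0.10 for all genes.

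On TC plates the receptors moved in 2 directions. Ccr1 was called higher with IL-4, as were 14.7% of 11865 genes (18.8% after rescaling), with a change of 0.21 ± 0.07 (adjusted p = 0.0478). The other 4 receptors were called lower, as were 24.0% of genes (20.3% after rescaling). Cx3cr1 changed by −4.85 ± 0.16 (adjusted p = 5.1e-08), the largest fall of all genes tested on TC plates, and its mean went from 73.8 to 1.60 TPM. Cxcr4 changed by −0.48 ± 0.10 (adjusted p = 0.00576), Ccr2 by −0.43 ± 0.18 (adjusted p = 0.112) and Ccrl2 by −0.36 ± 0.15 (adjusted p = 0.123). The calls of Ccr1 and Ccr2 rested on the second untreated library, without which their adjusted p was 0.248 and 0.625 and the change of Ccr2 was −0.12. Ccr2 also lost its call without the first library with IL-4 (adjusted p = 0.335), in a fit of the 4 TC plate libraries alone (0.312) and without the filter on low values (0.211). Ccrl2 had 0.214 without that filter. Ccrl2 lost its call without either untreated library (0.331 and 0.238) or the first with IL-4 (0.564, log2 change −0.16), and after rescaling (−0.30, adjusted p = 0.212).

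The responses to IL-4 differed between gels and TC plates in a way that was tested directly, as a difference between 2 IL-4 effects. Between low-collagen gels and TC plates, 4 receptors were called with a more negative effect in gels, against 18.7% of genes, and Cx3cr1 with a less negative one, against 9.30% of genes (10.1% and 14.5% after rescaling, with the same receptors called). The difference was −1.24 ± 0.09 for Ccr1 (adjusted p = 0.000116), −1.11 ± 0.25 for Ccr2 (adjusted p = 0.0205), −0.64 ± 0.14 for Cxcr4 (adjusted p = 0.0185), −0.68 ± 0.21 for Ccrl2 (adjusted p = 0.0728) and 0.58 ± 0.23 for Cx3cr1 (adjusted p = 0.142), and the median over all genes was −0.12. For Ccr1 the effects had opposite signs, and by adjusted p it ranked 18 of 11865 genes. Untreated Cx3cr1 was lower in low-collagen gels than on TC plates (means 42.2 and 73.8 TPM). With IL-4 it was low in both (1.25 and 1.60 TPM). Without the filter on low values the difference of Cx3cr1 was not called (adjusted p = 0.247, limma). Adding 0.1 instead of 1 to the TPM ended the call of Cx3cr1 (0.44, adjusted p = 0.416), and 5 of the 8 libraries involved did so when left out (adjusted p = 0.261 to 0.320). The difference of Ccrl2 was not called without the second TC plate library with IL-4 (−0.48, adjusted p = 0.202).

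Between high-collagen gels and the same TC plates, the difference was called for 3 receptors. It was negative for Ccr1 (−1.27 ± 0.09, adjusted p = 0.000103) and Ccr2 (−1.15 ± 0.25, adjusted p = 0.0245), as for 8.61% of genes, and positive for Cx3cr1 (0.78 ± 0.23, adjusted p = 0.0760), as for 8.66% (6.99% and 11.1% after rescaling). Cxcr4 (−0.07, 95% interval −0.39 to 0.24, adjusted p = 0.819) and Ccrl2 (0.25, 95% interval −0.23 to 0.73, adjusted p = 0.571) were not called. Cx3cr1 lost its call without the second library of TC plates with IL-4 (0.68, adjusted p = 0.201) or of high-collagen gels with IL-4 (0.64, adjusted p = 0.208). These comparisons share the TC plate libraries and are not independent of each other.

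The interaction of collagen and IL-4, which is the IL-4 effect in high- minus that in low-collagen gels, was called for 0 of the 5 receptors by limma, and for 0.363% of all genes, 0.194% higher and 0.169% lower (0.127% and 0.202% after rescaling). At an unadjusted p under 0.05, 2 receptors passed, as did 1171 of the 11852 genes. These were Ccrl2 with 0.94 ± 0.19 (95% interval 0.50 to 1.38, adjusted p = 0.245) and Cxcr4 with 0.56 ± 0.12 (95% interval 0.29 to 0.83, adjusted p = 0.251), ranked 61 and 64 of all genes by p. Fitting all 12 libraries gave the same value for Ccrl2 with an adjusted p of 0.196, which passes the threshold. For Ccr1 the interaction was −0.03 (95% interval −0.26 to 0.20), for Ccr2 −0.03 (−0.36 to 0.29) and for Cx3cr1 0.21 (−0.36 to 0.78).

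**Figure D2:**
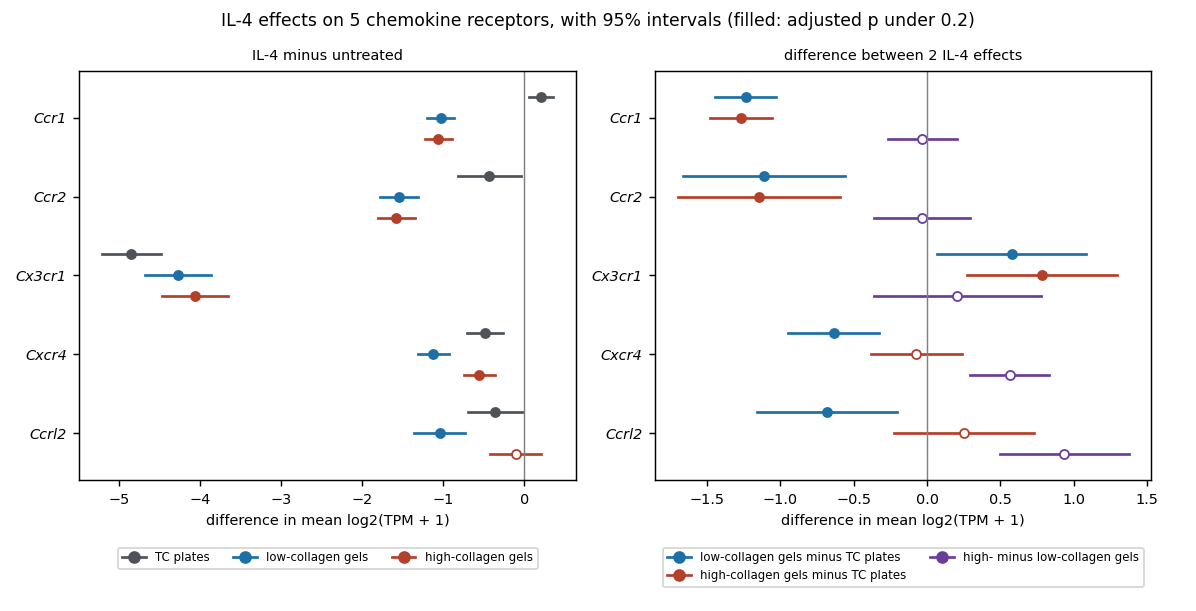
IL-4 effects on the 5 receptors. The left panel gives the change of log2(TPM + 1) with IL-4 on TC plates and in both gels, the right panel the differences between these effects, lines are 95% intervals from limma and filled points were called at an adjusted p under 0.2. Ccr1 changed by 0.21 on TC plates and by −1.03 and −1.06 in gels, while Cx3cr1 changed by −4.06 or more strongly in each setting.

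To determine whether collagen concentration altered the receptors, high- and low-collagen gels were compared. Without IL-4, Ccr1, Ccr2 and Cx3cr1 were higher in high-collagen gels, which makes 3 of 5 receptors against 3.23% of genes tested. The change was 0.37 ± 0.07 for Ccr1 (adjusted p = 0.0710), 0.60 ± 0.10 for Ccr2 (adjusted p = 0.0585) and 0.75 ± 0.17 for Cx3cr1 (adjusted p = 0.103). Cxcr4 (0.12, 95% interval −0.08 to 0.31, adjusted p = 0.550) and Ccrl2 (−0.19, −0.50 to 0.12, adjusted p = 0.545) were not called. Without the filter on low values, Cx3cr1 lost its call (adjusted p = 0.213, limma). The 3 calls were also sensitive to single libraries. Without the first untreated high-collagen library 0 receptors were called and without the second 1, Ccr2, was called. Cx3cr1 was not called without any 1 of the 4 untreated gel libraries (adjusted p = 0.213 to 0.314).

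With IL-4, all 5 receptors were called higher in high-collagen gels, against 14.1% of genes tested (10.5% after rescaling, where 11.2% were lower and not 6.99%). Cx3cr1 changed by 0.96 ± 0.17 (adjusted p = 0.0293), from a mean of 1.25 to 3.34 TPM, which is low in either gel. Ccrl2 changed by 0.75 ± 0.13 (adjusted p = 0.0284), Cxcr4 by 0.68 ± 0.08 (adjusted p = 0.00986), Ccr2 by 0.56 ± 0.10 (adjusted p = 0.0271) and Ccr1 by 0.34 ± 0.07 (adjusted p = 0.0397). In each receptor the lowest high-collagen library lay above the highest low-collagen library. The median change was 0.68 for the receptors and 0.06 for all genes. No left-out library and no other setting at the threshold of 0.2 ended these calls, with adjusted p between 0.00482 and 0.166.

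The receptors were then compared between gels and TC plates. Here most genes differed, and several medians of all genes were off 0: they were −0.13 and −0.16 for untreated low- and high-collagen gels and −0.28 and −0.20 with IL-4. The same rescaling brought them to between 0.01 and 0.02, and its values are given where they change a call or a sign. In untreated low-collagen gels Ccr1 (1.27 ± 0.07, adjusted p = 2.96e-07), Ccr2 (2.29 ± 0.18, adjusted p = 3e-06) and Cxcr4 (1.36 ± 0.10, adjusted p = 2.07e-06) were higher than on TC plates, as were 28.5% of genes. Cx3cr1 was lower (−0.80 ± 0.16, adjusted p = 0.00179), as were 44.3% of genes. After rescaling 37.1% of genes were higher and 36.0% lower. Ccrl2 was not called at 0.17 (adjusted p = 0.360) and was called after rescaling (0.33, adjusted p = 0.0994) and without the second library of these gels (0.31, adjusted p = 0.174).

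Untreated high-collagen gels showed the same 3 receptors higher, against 28.0% of genes (37.0% after rescaling). Ccr2 changed by 2.88 ± 0.18 (adjusted p = 6.67e-07), Ccr1 by 1.64 ± 0.07 (adjusted p = 5.72e-08) and Cxcr4 by 1.48 ± 0.10 (adjusted p = 1.15e-06). Cx3cr1 (−0.05, 95% interval −0.41 to 0.31) and Ccrl2 (−0.02, −0.36 to 0.32) were not called, and after rescaling their signs turned (0.14 and 0.16, not called).

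With IL-4, low-collagen gels had higher Ccr2 (1.17 ± 0.18, adjusted p = 0.000258) and Cxcr4 (0.72 ± 0.10, adjusted p = 0.000136) than TC plates, where 22.8% of genes were called higher (36.4% after rescaling). Ccrl2 was lower (−0.51 ± 0.15, adjusted p = 0.0136), as were 52.2% of genes (35.7% after rescaling), and was not called after rescaling (−0.23, adjusted p = 0.232). Ccr1 was not called (0.03, adjusted p = 0.737), but was called higher after rescaling (0.34, adjusted p = 0.00196). Cx3cr1 was not called either (−0.22, adjusted p = 0.257), but single libraries decided this. It was called lower without the first library of low-collagen gels with IL-4 (−0.43, adjusted p = 0.0512) or the second of TC plates with IL-4 (−0.32, adjusted p = 0.199) and with a pseudocount of 0.1 (−0.37, adjusted p = 0.179), and was at −0.013 without the second of low-collagen gels with IL-4. High-collagen gels with IL-4 had 4 receptors called higher, against 26.5% of genes (37.6% after rescaling): Ccr2 by 1.73 ± 0.18, Cxcr4 by 1.40 ± 0.10, Cx3cr1 by 0.73 ± 0.16 and Ccr1 by 0.37 ± 0.07 (adjusted p at most 0.00281). Ccrl2 missed the threshold (0.23, adjusted p = 0.207) and passed it after rescaling (0.46, adjusted p = 0.0303), without the mean-variance trend (adjusted p = 0.191) and without the second library of TC plates with IL-4 (0.44, adjusted p = 0.0403), whereas without the first it was 0.030 (adjusted p = 0.881).

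The monocyte markers moved with Ccr2 in part. Their summed level was 10.4 to 14.5 TPM untreated and 3.81 to 5.05 TPM with IL-4 on TC plates, 29.0 to 32.0 and 6.38 to 7.69 TPM in low-collagen gels, and 25.1 to 25.4 and 8.27 to 8.73 TPM in high-collagen gels. It was thus higher in untreated gels than on untreated TC plates and lower with IL-4, as Ccr2 was. Without IL-4 it was lower in high- than in low-collagen gels, where Ccr1, Ccr2 and Cx3cr1 were called higher. With IL-4 it was higher in high- than in low-collagen gels (8.27 to 8.73 against 6.38 to 7.69 TPM), as all 5 receptors were. Nr4a1 had the highest mean of these markers (7.05 TPM, from 0.978 to 25.1 TPM). The defining markers Ly6c2 and Plac8 were at 0 to 2.86 and 0 to 3.21 TPM. The summed macrophage markers also were highest in untreated high-collagen gels (53820 and 53960 TPM) and lowest on TC plates with IL-4 (17540 TPM in both). Most of this sum was Lyz2 (13220 to 48900 TPM), so it mainly describes 1 gene. The summed neutrophil markers lay between 5.15 and 9.67 TPM on TC plates and between 14.3 and 32.2 TPM in gels. In bulk samples fewer cells of a type and less RNA per cell cannot be told apart, and the part of these markers in the results was not tested.

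**Figure D3:**
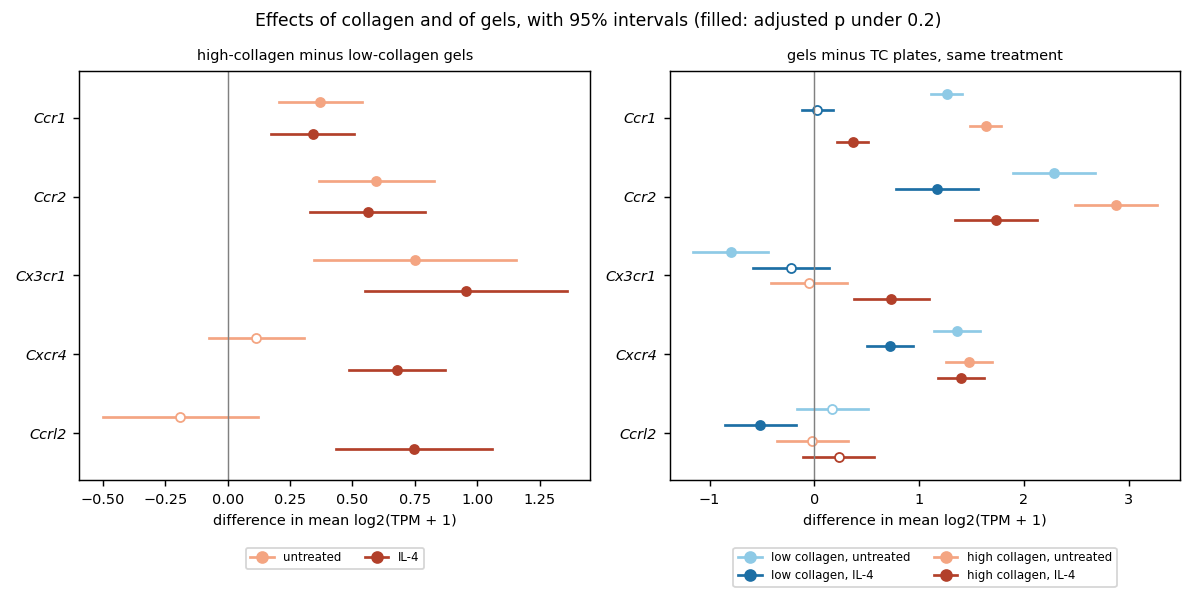
Effects of collagen and of gels on the 5 receptors, as changes of log2(TPM + 1) with 95% intervals from limma, filled where called at an adjusted p under 0.2. The left panel compares high- with low-collagen gels, where with IL-4 all 5 receptors were higher by 0.34 to 0.96, and the right panel compares gels with TC plates, where Ccr2 was higher by 1.17 to 2.88.

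The ligands of the receptors were a list of 11 genes, of which 8 had a mean of at least 1 TPM. Cx3cl1, Cxcl12 and Rarres2, the main ligands of Cx3cr1, Cxcr4 and Ccrl2, were below it, with means of 0.488, 0.0771 and 0.0540 TPM. IL-4 raised 5 ligands in low-collagen gels, 5 in high-collagen gels and 5 on TC plates, and these were Ccl2, Ccl6, Ccl7, Ccl9 and Ccl12 in each. After rescaling Mif joined them in low-collagen gels (0.28, adjusted p = 0.171, limma). The ligands of Ccr2 rose most. Ccl12 was at 15.4 and 23.9 TPM in untreated low-collagen gels and at 200.0 and 188 TPM with IL-4 (log2 change 3.27 ± 0.22), Ccl7 at 72.9 and 116 and then at 690 and 663 TPM (2.86 ± 0.26), and Ccl2 at 82.2 and 138 and then at 438 and 434 TPM (2.02 ± 0.27). Ccl6 rose from 632 and 655 to 1552 and 1765 TPM (1.36 ± 0.11) and Ccl9 from 485 and 590 to 1374 and 1513 TPM (1.43 ± 0.10). Ccl3 was called lower in each setting, with changes of −1.45, −0.95 and −1.94. The median change of the 8 ligands in low-collagen gels was 1.40. Of all genes, 13.2% were called higher there, 11.5% in high-collagen gels and 14.7% on TC plates (23.4%, 17.5% and 18.8% after rescaling).

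With IL-4, collagen moved most of the ligands the other way from the receptors, and without IL-4 only part of each list was called. In high- against low-collagen gels with IL-4, 6 of 8 ligands were called lower and 0 higher, and without IL-4, 4 were called lower and 0 higher, by limma (3 after rescaling, without Mif). Of all genes, 6.99% were called lower with IL-4 (11.2% after rescaling) and 4.79% without it (3.96%). In gels with IL-4 the log2 changes were −1.09 ± 0.27 for Ccl2 (adjusted p = 0.0631), −1.01 ± 0.26 for Ccl7 (adjusted p = 0.0684), −0.72 ± 0.22 for Ccl12 (adjusted p = 0.106), −0.60 ± 0.10 for Ccl9 (adjusted p = 0.0230), −0.56 ± 0.11 for Ccl6 (adjusted p = 0.0314) and −0.36 ± 0.11 for Mif (adjusted p = 0.112). Without IL-4 they were −1.30 for Ccl7, −1.03 for Ccl2, −0.55 for Ccl3 and −0.38 for Mif. Ccl5 (−0.90), Ccl12 (−0.17), Ccl9 (−0.10) and Ccl6 (−0.08) were not called without IL-4. Fits with a library left out were summarized for the receptors only, so the ligand calls were not checked in that way. The median change in gels was −0.63 for the ligands and 0.68 for the receptors with IL-4, and −0.47 and 0.37 without.

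Untreated gels were far below TC plates in the Ccr2 ligands, each called by limma. Of the 8 ligands tested, 5 were called lower and 3 higher in either gel (4 and 3 after rescaling). Of all genes, 44.3% were lower and 28.5% higher in low-collagen gels (36.0% and 37.1% after rescaling). In high-collagen gels 45.5% were lower and 28.0% higher (36.7% and 37.0%). Ccl2 was at 1026 and 953 TPM on untreated TC plates and changed by −3.20 in low- and −4.23 in high-collagen gels, Ccl7 was at 635 and 612 TPM and changed by −2.75 and −4.05, and Ccl12 was at 229 and 201 TPM and changed by −3.42 and −3.58. Ccl5, a ligand of Ccr1, was at 1.89 and 4.28 TPM there and at 20.5 and 45.0 TPM in low-collagen gels (3.01 ± 0.55). Its replicates lay far apart, with 72.1 and 21.6 TPM for IL-4 in low-collagen gels, and it was not called for IL-4 or collagen. Ccl6 and Mif were also higher in untreated gels. Mean Ccl6 was 325 TPM on TC plates, 643 TPM in low-collagen gels and 613 TPM in high-collagen gels. Mean Mif was 667, 1053 and 801 TPM in the same order.

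**Figure D4:**
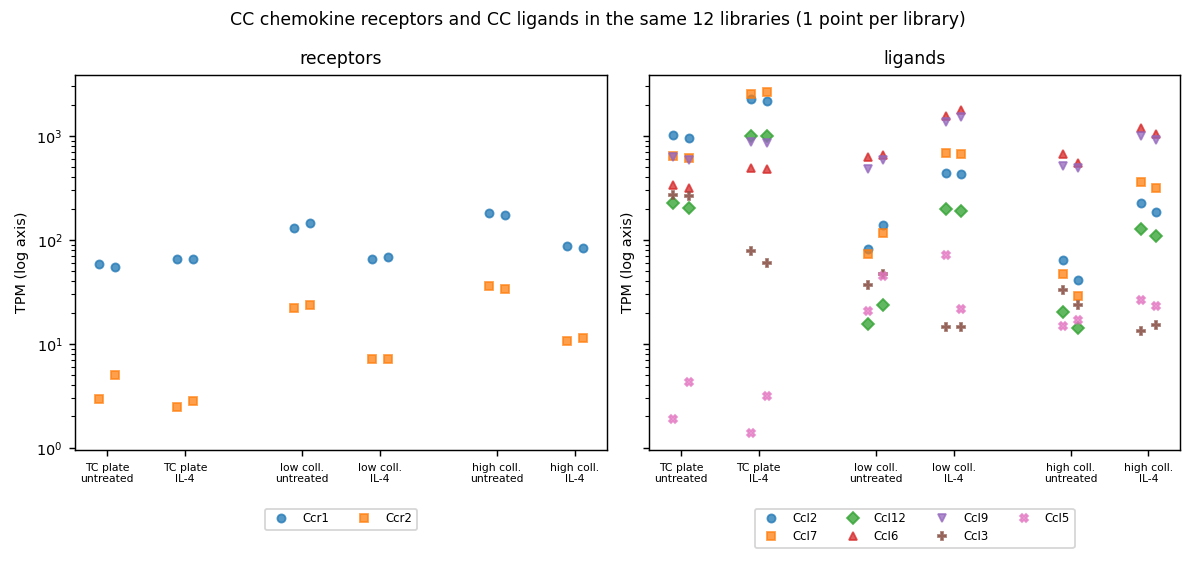
TPM of the CC chemokine receptors Ccr1 and Ccr2 (left) and CC ligands (right) in the 12 libraries, 1 point per library, on a shared log axis. From untreated to IL-4 in low-collagen gels Ccr2 fell from 22.1 and 23.5 to 7.12 and 7.22 TPM, and its ligand Ccl12 rose from 15.4 and 23.9 to 200.0 and 188 TPM.

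Of 21 other chemokine receptor genes, 18 had a mean below 1 TPM, and Ccr6, Ccr8 and Ackr1 were at 0 in all libraries. Cmklr1 and Cxcr3 were among those above it. Cmklr1, the signaling receptor for chemerin, was at 4.60 and 6.18 TPM on untreated TC plates and at 22.8 and 27.3 TPM in untreated low-collagen gels (2.03 ± 0.14, adjusted p = 1.39e-06). IL-4 raised it on TC plates (0.47 ± 0.14, adjusted p = 0.0350) and lowered it in low-collagen gels (−0.35 ± 0.11, adjusted p = 0.0492), a call that rescaling ended (−0.15, adjusted p = 0.283). Its collagen differences were 0.01 and 0.20 and were not called. Cxcr3 was called lower with IL-4 in low-collagen gels (−0.59), in high-collagen gels (−0.74) and on TC plates (−1.25).

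The signaling genes downstream of the receptors were a list of 41 symbols, of which 38 were tested. In low-collagen gels IL-4 left 22 called lower and 3 higher, at a median of −0.23 (−0.19 for all genes), but after rescaling 14 were lower and 12 higher. The shares of all genes there were 40.4% lower and 13.2% higher (21.4% and 23.4% after rescaling). Arrb2, a β-arrestin that takes receptors off the surface, fell most (−1.43 ± 0.07, adjusted p = 9.96e-06), followed by Pik3cg, the catalytic subunit of PI3K-γ (−1.30 ± 0.09, adjusted p = 4.83e-05). The G protein subunits Gnb1 (0.38 ± 0.07, adjusted p = 0.00590) and Gng12 (0.29 ± 0.10, adjusted p = 0.0603) were the largest rises. In high-collagen gels 18 were called lower and 3 higher with IL-4 (14 and 6 after rescaling), and on TC plates 24 and 2 (19 and 5). Of all genes, 22.8% were lower and 11.5% higher in high-collagen gels (14.4% and 17.5%), and 24.0% and 14.7% on TC plates (20.3% and 18.8%). In high- against low-collagen gels with IL-4, 10 were called higher and 1 lower (7 and 5 after rescaling), led by Gnaq, a G protein α subunit (0.57 ± 0.11, adjusted p = 0.0346), and Prex1, an exchange factor for Rac (0.53 ± 0.08, adjusted p = 0.0156). The only one called lower before rescaling was Dock2, another Rac activator (−0.22 ± 0.08, adjusted p = 0.155). Of all genes, 14.1% were higher and 6.99% lower in that comparison (10.5% and 11.2%). Without IL-4, 4 were called higher and 1 lower, against 3.23% and 4.79% of all genes.

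The receptors resembled each other to different degrees over the 12 libraries, which share conditions, so correlations are a description only. Pearson's r of log2(TPM + 1) was 0.97 between Ccr2 and Cxcr4, 0.94 between Ccr1 and Ccr2 and 0.89 between Ccr1 and Cxcr4. Cx3cr1 and Ccrl2 had 0.73, and the other pairs had 0.41 to 0.51. Among 9665 genes with a mean of at least 5 TPM, the genes most like Ccr1 were Cmtm6 (r = 0.977), 4931406C07Rik (0.972) and Mylip (0.972). For Ccr2 they were AC121905.1 and Sirpb1c, which have identical values (r = 0.990), and St8sia4 (0.990 after rounding), and for Cxcr4 they were Rgs10 (0.992), Slc43a2 (0.990) and Thbs1 (0.989). Among the genes most like Cx3cr1 were Marcksl1 (r = 0.989) and Pram1 (0.984). Marcksl1 went from 127 to 8.52 TPM with IL-4 on TC plates. Ccrl2 had less close partners, Atxn7l1 (0.916), B4galt1 (0.907) and Wipi2 (0.901).

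Ccr1 and Cxcr4 both fell with IL-4 in gels, whereas on TC plates Ccr1 was called higher and Cxcr4 lower. The 250 bases before their start sites are shown because these windows, unlike those of the other receptors, lie outside annotated gene bodies (RefSeq, GRCm38.p6, minus strand, written 5′ to 3′ in the direction of the gene). Capitals mark the matches to the motifs searched. The Ccr1 window is chr9:123968693-123968942 and the Cxcr4 window is chr1:128592300-128592549.
Ccr1: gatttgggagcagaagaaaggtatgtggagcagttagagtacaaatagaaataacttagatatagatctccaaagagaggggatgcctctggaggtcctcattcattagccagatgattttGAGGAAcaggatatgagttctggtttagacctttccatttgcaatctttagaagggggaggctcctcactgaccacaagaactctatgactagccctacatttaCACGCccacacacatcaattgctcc
Cxcr4: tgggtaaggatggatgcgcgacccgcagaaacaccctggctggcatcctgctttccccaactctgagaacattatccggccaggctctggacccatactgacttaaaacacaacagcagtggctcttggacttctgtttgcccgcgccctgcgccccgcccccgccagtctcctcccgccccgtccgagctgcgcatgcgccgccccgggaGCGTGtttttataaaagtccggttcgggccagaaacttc
Both strands of the 7 windows that the table holds for the 5 genes were searched for 4 motifs, beside all 32851 windows. The STAT motif, TTC and GAA separated by 4 bases, occurred in 5.85% of all windows, and the AP-1 motif TGACTCA in 4.46%. Neither was in a window of these genes. GAGGAA, the core to which PU.1 binds, occurred in 23.3% of windows and in that of Ccr1, 129 bases before the start. ACGTG or GCGTG, the core of hypoxia response elements, occurred in 38.6% of windows and in those of Ccr1 (opposite strand, 25 bases before the start), Cxcr4 (39 bases before the start) and Ccrl2. A match is a run of letters and not a shown binding site.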

How the data were processed

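RNA-seq of 12 BMDM libraries was used. Per the labels and the methods of the study, the authors made stranded polyA libraries, sequenced 38-base paired ends and quantified transcripts with kallisto 0.46.1 on the GRCm38 cDNA, and deposited 1 table of TPM per gene and library. How transcripts were joined into genes is not given in the sources used here. TPM keep no depth, so no count test was possible. The 129 repeated lines of the table (1742 to 2155 TPM per library) were collapsed.

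Differences were fitted on log2(TPM + 1) with limma 3.58.1 in R 4.3.3, with 1 mean per condition, a mean-variance trend, genes of a mean TPM of at least 1 and Benjamini-Hochberg adjustment over all of them. The 8 gel libraries entered 1 fit and all 12 another for comparisons with TC plates. The fits were tested on simulated data with independent noise and changes set only in the more abundant genes. That test does not bear on technical replicates or on low values. Exact permutation of 2 against 2 libraries cannot go below p = 0.33. The other software was python 3.11.15 with numpy 2.4.6, pandas 2.3.3 and matplotlib 3.10.9. As alternatives, 0.1 was added to the TPM instead of 1, the filter was dropped or set to 5 TPM, the trend was dropped, TPM were divided by median-ratio size factors (0.849 to 1.14), replicate numbers were blocked, the adjusted p had to be under 0.05, other libraries entered the fit, and each library was left out.

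The receptors and gene lists were chosen with earlier results of these data known. Named besides the receptors are the other chemokine receptors and ligands with a mean of at least 5 TPM, the 2 largest called rises and falls among signaling genes in 2 comparisons, and the 3 genes most like each receptor. Cxcr3 and genes given with a level only were named in addition. Some genes that these rules name are not reported here.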

Additional observations from a re-analysis of the deposited data

Results flagged for a closer look

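The effect of IL-4 differed between gels and TC plates for several receptors by a direct test of the difference of log2(TPM + 1) effects in limma. Between low-collagen gels and TC plates the difference was −1.24 for Ccr1, −1.11 for Ccr2, 0.58 for Cx3cr1, −0.64 for Cxcr4 and −0.68 for Ccrl2. Between high-collagen gels and TC plates it was −1.27 for Ccr1, −1.15 for Ccr2 and 0.78 for Cx3cr1. The calls of Cx3cr1 (adjusted p = 0.142 and 0.0760, limma) and Ccrl2 (0.0728) were lost under some alternatives, as given above. Of all genes, 18.7% had a negative and 9.30% a positive difference called for low-collagen gels. For high-collagen gels these shares were 8.61% and 8.66%. All 4 Ccr1 libraries of gels with IL-4 lay below the untreated libraries of the same gel, while both TC plate libraries with IL-4 lay above the untreated ones. No other value of the receptors was tested for samples that stand apart, since each group has 2 libraries.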

How the results depend on the processing

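Over the 12 comparisons of the 5 receptors, 475 of 500 values under other settings kept their direction and their side of the threshold, 16 lost a call, 6 gained one and 3 changed sign. With 1 library left out, 265 of 300 did so, 21 lost a call, 4 gained one and 10 changed sign. The number of receptors called for high against low collagen without IL-4 was 0 at an adjusted p under 0.05 in limma (3 at an unadjusted p under 0.05) and 0 to 2 with a library left out. For IL-4 on TC plates it was 3 without the filter on low values, 3 at an adjusted p under 0.05 and 2 to 5 with a library left out, and for IL-4 effects of low-collagen gels less those of TC plates it was 3 at an adjusted p under 0.05 and 3 to 5 with a library left out. A fit of all 12 libraries called the interaction for 1 receptor, Ccrl2. Signs turned only for values that were not called: with a pseudocount of 0.1 the interaction of Ccr2 was 0.0028, and with median-ratio rescaling untreated high-collagen gels differed from TC plates by 0.14 for Cx3cr1 and 0.16 for Ccrl2. With a library left out, the interaction ranged from −0.102 to 0.0382 for Ccr1, from −0.0896 to 0.0206 for Ccr2 and from −0.0019 to 0.42 for Cx3cr1, the difference of untreated high-collagen gels from TC plates from −0.0695 to 0.0299 for Ccrl2, and IL-4 effects of high-collagen gels less those of TC plates from −0.195 to 0.0461 for Cxcr4. Rescaling moved 13 of the 30 mean levels by more than 1 SD.

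The replicate numbers were used only as names of the libraries. Deviations of equally numbered libraries correlated weakly, at −0.12 to 0.11 over 15 pairs of conditions. These correlations cannot show whether libraries were paired by mouse or culture, which no source used here gives. With the replicate block 3 receptors were called for high against low collagen without IL-4 and 5 with it, and it changed no call of a receptor. Over all genes it took the calls from 951 to 586 for collagen without IL-4 and from 43 to 18 for the interaction. TPM keep no depth, so the precision of low values such as those of Cx3cr1 with IL-4 rests on 2 libraries per condition.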
